A study of Mus musculus with 36 samples.

Results

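To ask how loss of TET1 alters DNA methylation in the embryonic brain when the maternal diet holds an excess of folic acid (FA), Tet1 KO and WT embryos from dams on the 30 ppm diet were compared. The comparison used 8 of the 36 libraries of the series, chosen by the genotype and diet in their titles. 5 were KO and 3 were WT. Each library came from the brain of a single embryo at E11.5, dissected from forebrain to hindbrain. All embryos belonged to the congenic 129S6.Cg strain with the Tet1tm1Koh allele and were born to Tet1 heterozygous (HET) dams. These dams had been adapted for 4 weeks to a custom diet with 30 ppm FA that also contained the antibiotic succinylsulfathiazole. KO and WT embryos therefore shared the diet, the antibiotic and a HET mother. The KO replicates were numbered 2 to 6 and came from litters 36, 38, 41, 41 and 43. Replicates 2 and 3 were labelled NTD (neural tube defect), replicate 4 was labelled inHB and replicates 5 and 6 norm. The WT replicates 1, 2 and 3 came from litters 36, 41 and 43 and were all labelled norm. The groups held 2 female and 3 male KO embryos, and 2 female and 1 male WT embryos. A further library labelled KO replicate 1 was left out because the study's own sample list gives it as HET, and its values are given beside the rest.

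TET1 is a dioxygenase that oxidises 5-methylcytosine at CpG dinucleotides, the first step of active demethylation. Its CXXC domain binds CpG-rich DNA, so that it is mostly found at promoters and CpG islands. FA feeds the one-carbon cycle, whose product S-adenosylmethionine is the methyl donor of DNA methyltransferases. Libraries were made by reduced representation bisulfite sequencing after an oxidation step, so the methylation level reported here is 5-methylcytosine without its oxidised forms. Because whole brains were used, a change within cells and a change in the mix of cell types cannot be told apart.

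To check the genotype labels, the CpG within Tet1 with the largest KO against WT difference was first found among the embryos of the 3 ppm diet. This CpG lies at position 62884019 of chromosome 10 (mm10), in an intron. On 3 ppm its level was 72 to 93.75% in KO and 0 to 7.32% in WT. On 30 ppm KO replicates 2 to 6 read 82.6, 88.9, 100, 77.8 and 85% on 15 to 23 reads. WT replicates 1 and 3 read 0% on 30 reads (95% Wilson interval up to 11.4%) and on 8 reads (up to 32.4%). For the library labelled WT replicate 2 the level was 36.36%, from 33 reads (22.2 to 53.4%). For the library labelled KO replicate 1 it was 45%, from 20 reads (25.8 to 65.8%). The 5 HET libraries read 8.33 to 28.6%. Over 118 CpGs of Tet1 together, the library labelled WT replicate 2 (48.1%) lay within the range of KO replicates 2 to 6 (46.2 to 51.8%), and the library labelled KO replicate 1 (39.9%) between WT replicates 3 and 1 (37.9 and 41.34%). The library labelled WT replicate 2 thus differed from the other WT libraries at Tet1. The study's own sample list gives it as WT, and whether its label is wrong was not tested. It stayed in the WT group as labelled, and values without it are given. Depth over the 8 libraries was 25.6 to 94.96 M CpG calls, with a mean coverage of 12.95 to 31.8 reads per listed CpG. WT replicates 1, 2 and 3 had 94.96, 63.4 and 28.8 M calls, and KO replicates 2 to 6 had 25.6 to 47.7 M. The quasi-binomial test used below pools reads within a group, so deeper libraries weigh more in it.

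Windows of 240 bp from 5 of the 10 named 1 kb tiles (the largest differences) are printed first, to show what sequence carries differences of this size. They are those among the named tiles in which a window free of annotated UTRs held at least 4 measured CpGs, and some tiles with larger differences are not shown. They are given on the plus strand of mm10, with the CpGs measured in all 8 libraries in capitals. The Tnfrsf1a window (chr6:125361705-125361944) lies in a coding exon of this TNF receptor gene, 12138 bp from its start to the tile's centre. The Olfr153 window (chr2:87526001-87526240) is nearest to this olfactory receptor gene (tile centre at -5296 bp from its start) and overlaps the processed pseudogene Gm13736. The Rtn4rl2 window (chr2:84882524-84882763) lies in an intron of a Nogo receptor-like gene. The C2cd4b window (chr9:67700001-67700240) has its tile centre at -58937 bp from the nearest start and overlaps the processed pseudogene Gm47110. The Katnal1 window (chr5:148820468-148820707) is intergenic, 108820 bp from the nearest start. Reads from a pseudogene can be hard to place, so the Olfr153 and C2cd4b windows are less certain.
Tnfrsf1a: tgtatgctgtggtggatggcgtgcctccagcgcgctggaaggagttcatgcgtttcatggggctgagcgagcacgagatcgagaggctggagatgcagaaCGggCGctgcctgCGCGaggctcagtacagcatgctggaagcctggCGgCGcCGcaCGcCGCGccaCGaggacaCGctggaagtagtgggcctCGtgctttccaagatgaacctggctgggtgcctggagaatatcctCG
Olfr153: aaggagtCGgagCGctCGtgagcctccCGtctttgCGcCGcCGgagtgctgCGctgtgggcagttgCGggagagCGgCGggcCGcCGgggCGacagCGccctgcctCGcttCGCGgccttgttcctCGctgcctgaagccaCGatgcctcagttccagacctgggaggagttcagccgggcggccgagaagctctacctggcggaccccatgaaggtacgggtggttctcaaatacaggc
Rtn4rl2: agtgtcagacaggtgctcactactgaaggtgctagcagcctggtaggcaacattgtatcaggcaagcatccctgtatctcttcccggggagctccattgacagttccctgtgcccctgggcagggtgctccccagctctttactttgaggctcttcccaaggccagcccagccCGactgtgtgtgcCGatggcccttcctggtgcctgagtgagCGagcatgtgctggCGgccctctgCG
C2cd4b: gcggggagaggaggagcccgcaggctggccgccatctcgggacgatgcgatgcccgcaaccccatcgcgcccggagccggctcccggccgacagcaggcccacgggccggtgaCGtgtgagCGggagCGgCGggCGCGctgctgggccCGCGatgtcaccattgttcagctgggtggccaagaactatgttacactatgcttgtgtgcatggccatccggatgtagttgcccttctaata
Katnal1: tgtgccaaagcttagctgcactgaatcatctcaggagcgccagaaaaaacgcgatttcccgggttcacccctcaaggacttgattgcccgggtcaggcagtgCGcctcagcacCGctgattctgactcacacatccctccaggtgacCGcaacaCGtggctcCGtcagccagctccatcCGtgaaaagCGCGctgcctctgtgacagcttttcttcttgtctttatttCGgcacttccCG

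At each measured CpG of these windows the group mean was higher in KO than in WT. In the Tnfrsf1a window, 14 CpGs were measured, with group means per CpG of 59.8 to 93.5% in KO and 3.23 to 28.5% in WT, and at 13 of them every KO embryo lay above every WT embryo. Coverage there was as low as 5 reads per CpG. In the Olfr153 window this held at 20 of 20 CpGs, with 45.28 to 95.1% in KO and 8.48 to 24.1% in WT. In the Rtn4rl2 window it held at 5 of 5 CpGs (59.7 to 79.9% against 9.40 to 19.8%), in the C2cd4b window at 8 of 8 (54.9 to 75.04% against 11.1 to 17.6%) and in the Katnal1 window at 10 of 10 (51.7 to 90.9% against 7.17 to 33.9%). These tiles were chosen for their differences and for no overlap between the groups, so the values are a description. CpGs of a window can lie on the same reads and are not separate observations.

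Mean methylation over the CpGs shared by the libraries lay higher in KO than in WT, but the adjusted test could not pass with these embryo numbers. Across these 1135186 autosomal CpGs, with 5 or more reads in each of the 8 libraries, KO replicates 2 to 6 had means of 36.8, 36.9, 37.1, 37.1 and 36.9%. WT replicates 1 to 3 had 34.11, 35.43 and 34.6%. All 5 KO embryos lay above every WT embryo, and the 5 KO values spanned less than the 3 WT values. The difference was 2.26 points, from 37.0% ± 0.136 (SD, n = 5) in KO to 34.7% ± 0.669 (n = 3) in WT. The two-sided exact permutation p was 0.0357, the smallest that 5 against 3 embryos allow, and 0.0536 after adjustment over the 6 means compared. Each of the 6 p-values was the smallest that its embryo numbers allow, so the adjusted value could not have been below 0.0536. Within litters 36, 41 and 43 the KO embryos exceeded their WT littermate by 2.67, 1.67 and 2.33 points. The smallest of these differences was in litter 41, which holds the library labelled WT replicate 2. Without that library the difference was 2.62 points. When each embryo's own CpGs were averaged in place of the shared ones, it was 1.48 points (exact permutation p = 0.714), and 3.12 points when weighted by reads (exact permutation p = 0.25).

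To locate the gain, the autosomes were divided into 1 kb tiles. Tiles entered the test with 3 or more CpGs that each had 5 or more reads in every embryo, and with an SD of 2 points or more between embryos, which left 65152 of 93233 covered tiles. Calls needed an adjusted p below 0.05 together with a difference of 10 points or more, and a called tile is named hyper where KO is higher and hypo where KO is lower. KO brains had 7718 hyper tiles, 11.8% of those tested, and 15 hypo tiles, 0.023% (quasi-binomial test, Benjamini-Hochberg adjustment). At hyper tiles the median level rose from 46.2% in WT to 67.9% in KO, with a median difference of 16.4 points and a largest of 60.6 points. In 6383 of the hyper tiles (82.7%) every KO embryo lay above every WT embryo, against 18.7% of all tested tiles (0.293% had every KO embryo below every WT embryo). The shift also reached tiles that were not called. KO was higher in 79.3% of all tested tiles, with a median difference of 3.11 points, and 4108 more tiles passed the adjusted p with a gain under 10 points. The called tile nearest to the 10 point limit differed by 10.0011 points and the nearest one outside it by 9.99851 points. The count of hyper tiles was 10429 without the library labelled WT replicate 2 and 4916 without WT replicate 1. Adding the library labelled KO replicate 1 to the KO group gave 3699.

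Hyper tiles were most frequent where WT brains have intermediate methylation. When tiles were grouped by their level in the 4 WT embryos of the 3 ppm diet, which took no part in the calls, 48.7% of tiles at 30 to 50% were hyper. The share was 46.9% at 10 to 30%, 31.1% at 50 to 70% and 23.1% below 10%. It dropped to 5.20% at 70 to 90% and to 0.0709% above 90%, although these groups held 25329 and 18332 tiles. Fully methylated tiles have little room for a gain, and the part of this limit in the shares was not tested. Among the tested tiles, CpG-rich tiles were called more often than CpG-poor tiles. The share of hyper tiles was 2.98% with under 10 CpGs per kb, 8.72% with 10 to 19, 16.7% with 20 to 39, 25.7% with 40 to 59 and 20.8% with 60 or more. Of tiles overlapping a promoter 23.3% were hyper, compared to 12.4% of tiles in exons, 9.79% in introns and 9.70% between genes. Tested promoter tiles had a median WT level of 37.9%, and exonic, intronic and intergenic tiles had 87.9, 85.1 and 85.4%. All these shares hold for tiles that passed the SD filter, which keeps tiles that vary between embryos. Without the filter 7541 of 93233 tiles were hyper (8.09%), and 509 of 13200 promoters (3.86%). Shares by class were not computed without it. By chromosome the share ranged from 8.58% on chromosome 18 to 15.8% on chromosome 11. In the interval of 10 Mb to either side of Tet1, 79 of 734 tiles were hyper (10.8%), near the share of all tested tiles.

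**Figure D1:**
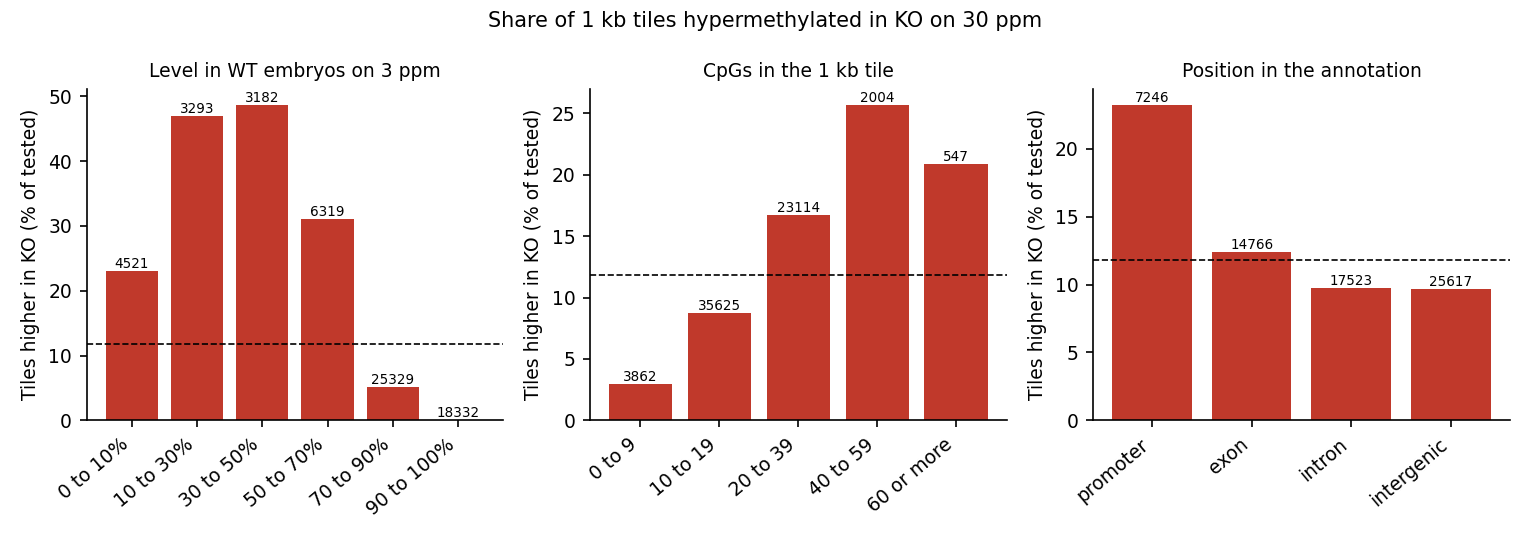
Share of tested 1 kb tiles that were hyper in KO on 30 ppm (y axis, % of tested tiles), by the level in the WT embryos of the 3 ppm diet, by the number of CpGs in the tile and by position in the annotation. Numbers above bars are tiles tested and the dashed line is the 11.8% of all tested tiles. Only tiles that passed the SD filter were tested, so the shares hold for those alone. The bar at 30 to 50% WT methylation is the highest, at 48.7%.

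Around the starts of protein-coding genes, KO and WT embryos formed separate sets of profiles. Shared CpGs were averaged per embryo in 50 bins of 200 bp within 5000 bp of a start, and in 50 of 50 bins every KO embryo lay above every WT embryo. The neighbouring bins share reads and libraries and are not separate tests. The trough at the start was preserved. In the bin with the lowest WT level, 100 bp upstream of the start, the mean was 1.82% in WT and 2.14% in KO, and the difference of 0.323 points was the smallest of all bins. At 700 bp upstream it was 2.06 points (9.02% to 11.1%), and at 700 bp downstream 1.36 points (3.53% to 4.89%). The largest difference, 3.57 points, was found 4900 bp downstream.

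**Figure D2:**
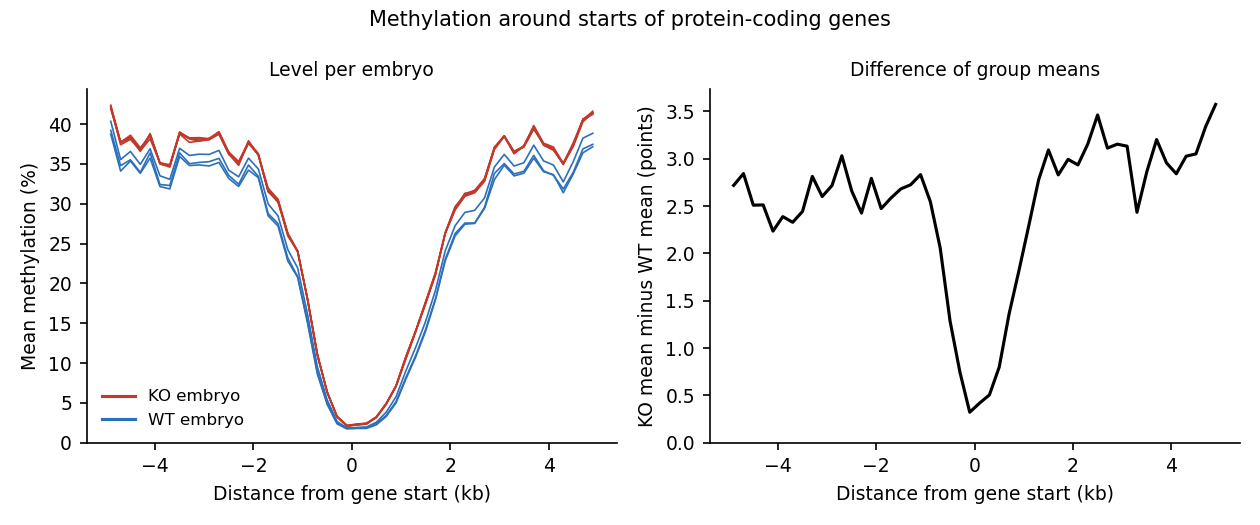
Mean methylation (%) by distance from the start of protein-coding genes (kb), in bins of 200 bp, with 1 line per embryo (left), and the KO mean minus the WT mean in points (right). KO lines lie above WT lines in all 50 bins, and the difference narrows to 0.323 points next to the start.

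The named hyper tiles are those with the largest differences among hyper tiles without overlap between the groups, at most 1 per nearest gene. A tile in an exon of Tnfrsf1a (chromosome 6, 125361001 to 125362000) had 91.8, 62.2, 89.1, 65.0 and 90.4% in KO replicates 2 to 6, and 7.10, 29.7 and 20.5% in WT replicates 1 to 3. KO replicates 3 and 5 were lower than the other KO embryos, but every WT embryo was lower still. KO exceeded WT by 60.6 points, from 79.7% ± 14.8 (n = 5) to 19.1% ± 11.3 (n = 3), on 14 CpGs and 74 to 499 reads per embryo (quasi-binomial test, adjusted p = 2.29e-06). A tile in an exon of the zinc finger gene Zfp467 (chromosome 6, 48439001 to 48440000) had 75.7, 82.3, 69.9, 66.2 and 73.9% in KO and 13.6, 22.4 and 7.31% in WT. This is a difference of 59.2 points (adjusted p = 7.63e-09). The tile at the promoter of Tmem233, a transmembrane protein gene (chromosome 5, 116083001 to 116084000), had 63.3, 78.5, 73.5, 63.9 and 70.6% in KO and 7.96, 27.5 and 8.51% in WT. Here the library labelled WT replicate 2 stood above the other WT embryos, but still far below the KO embryos.

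In an exon of Dscaml1, a neuronal cell adhesion gene (chromosome 9, 45447001 to 45448000), the levels were 85.6, 92.0, 87.5, 82.4 and 90.6% in KO and 35.19, 43.8 and 23.4% in WT (53.5 points, adjusted p = 1.29e-08). The tile in an intron of Rtn4rl2 (chromosome 2, 84882001 to 84883000) rose from 16.0% ± 9.23 to 68.3% ± 4.45 (52.3 points, adjusted p = 1.02e-07). The other named tiles were those nearest to Rpl31 (in an intron of Tbc1d8), Olfr153, C2cd4b, Katnal1 and Nup54 (at an alternative start of Art3), with differences of 50.9 to 56.6 points. In 9 of the 10 named tiles the library labelled WT replicate 2 was the highest WT library, and in 8 of 10 KO replicate 5 was the lowest KO library. Over all hyper tiles these shares were 77.0 and 25.6%. Both libraries come from litter 41, as does KO replicate 4, which was the lowest KO library in 17.1% of hyper tiles.

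**Figure D3:**
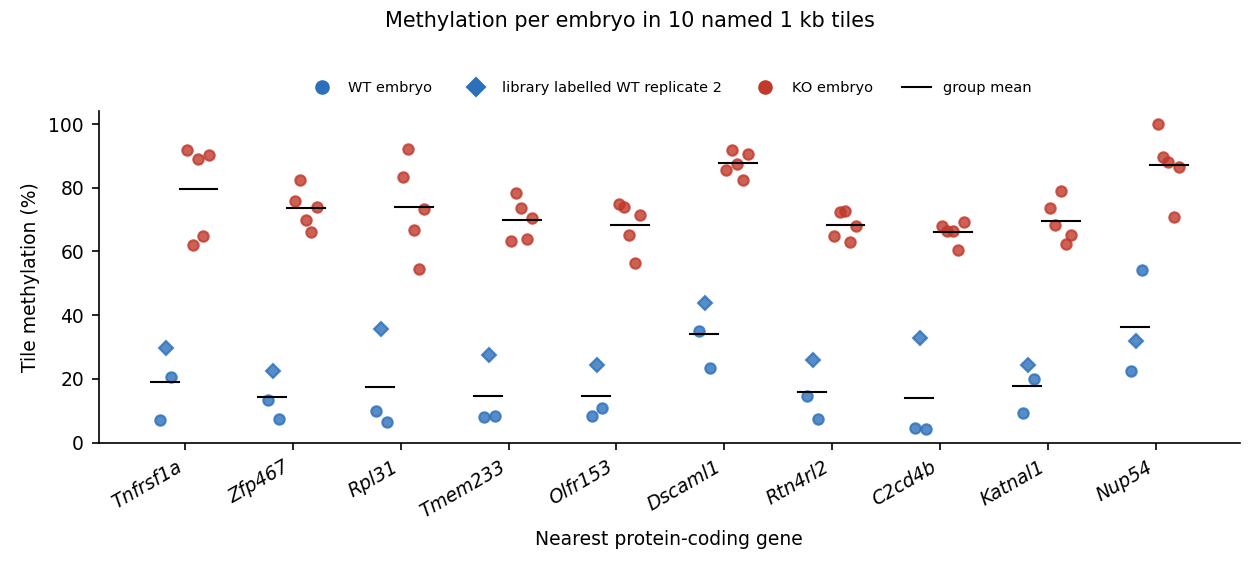
Methylation level (%) per embryo in the 10 named hyper tiles, labelled by nearest gene. Red points are the 5 KO embryos, blue points the 3 WT embryos with the library labelled WT replicate 2 as a diamond, and lines are group means. KO embryos lie above WT embryos in each tile, as the rule of choice required. The closest approach is in the Nup54 tile, with 70.9% in the lowest KO and 54.1% in the highest WT embryo.

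The 15 hypo tiles differed by at most 19.6 points, and 7 to 11 of them kept the call with any 1 embryo left out. The largest loss was in an intron of Gm7247, nearest to Vmn2r89 (chromosome 14, 51434001 to 51435000). KO embryos had 42.02, 28.6, 46.5, 63.8 and 50.6% there, and WT embryos 57, 73.9 and 66.7%, so that the groups overlapped. The level fell by 19.6 points (adjusted p = 0.0441). In an intron of Rgs6, a regulator of G protein signalling (chromosome 12, 82803001 to 82804000), the levels were 66.7, 74.1, 72.2, 81.7 and 76.9% in KO and 87.2, 90.6 and 90.9% in WT, with no overlap (difference -15.2 points, adjusted p = 0.0194). The tiles nearest to Krtap4-7, Id4 and Bid differed by -16.3, -13.2 and -12.9 points. The Id4 difference was -7.27 points without the library labelled WT replicate 2 and -8.16 points without KO replicate 4. The Bid difference was -8.78 points without KO replicate 3. With litter as a block the Krtap4-7 tile lost its call (-11.4 points, quasi-binomial test, adjusted p = 0.0757). On 9 of the 15 hypo tiles the call was kept without the library labelled WT replicate 2, and 24 hypo tiles were called in that setting. With KO replicate 3 left out there were 9. Each of the 5 named hypo tiles lost its call in the quasi-binomial test with some embryos left out. For the Krtap4-7 tile this embryo was KO replicate 3 (adjusted p = 0.052). For the Rgs6 tile they were KO replicate 4 and the library labelled WT replicate 2 (0.053 and 0.0973), for the Id4 tile these same libraries and KO replicate 5 (0.0552 to 0.0842), and for the Bid tile KO replicates 2 and 3 and WT replicate 3 (0.0858 to 0.156). For the Vmn2r89 tile they were KO replicates 2, 3, 4 and 6 and WT replicates 2 and 3 (0.0564 to 0.109).

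To see whether the gain depends on tiles chosen in these embryos, the levels were read at the 9607 tiles that were hyper in KO on the 3 ppm diet. KO replicates 2 to 6 had mean levels of 60.7, 61.1, 61.1, 60.0 and 60.9%, and WT replicates 1 to 3 had 43.3, 50.9 and 44.5%. The difference was 14.5 points, from 60.7% ± 0.478 (n = 5) to 46.2% ± 4.10 (n = 3), with an exact permutation p of 0.0357, the smallest possible, and an adjusted p of 0.0536. This adjusted value, too, was the lowest that the embryo numbers allow. The 5 KO embryos lay between 60.0 and 61.1%, whether labelled NTD, inHB or norm. Within litters 36, 41 and 43 the difference was 17.4, 9.59 and 16.4 points. At 74.5% of these tiles (of 9601 that also passed the SD filter here) the library labelled WT replicate 2 was the highest of the 3 WT libraries. Without it the difference was 16.8 points.

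The remaining libraries of the diet were placed beside these values, as a description, over the 9435 tiles covered in all 14 libraries. On this set KO replicates 2 to 6 had 59.9 to 61.1%, the 5 HET embryos 47.5 to 50.02%, and WT replicates 1 and 3 43.2 and 44.4%. The library labelled WT replicate 2 had 50.8% and the library labelled KO replicate 1 had 47.2%. The first lay just above and the second just below the range of the HET libraries, while at the CpG in Tet1 both lay above it.

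**Figure D4:**
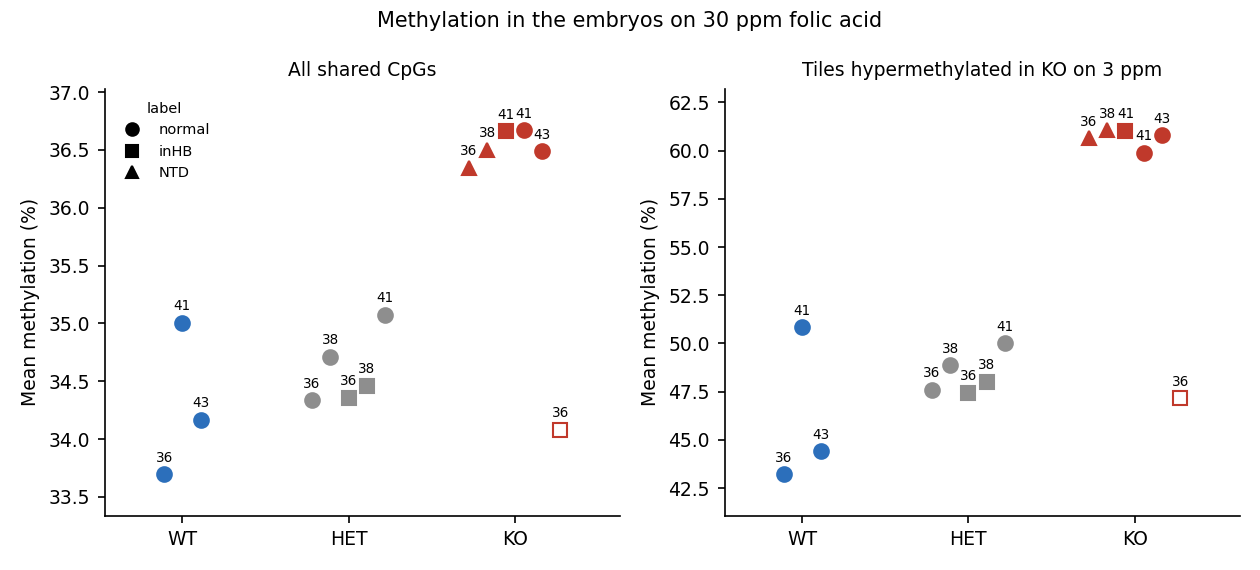
Mean methylation (%) per embryo on 30 ppm FA over 1091683 CpGs (left) and over 9435 tiles that were hyper in KO on 3 ppm (right), for CpGs covered in all 14 libraries. Numbers are litters, symbols the phenotype label, and the open square is the library labelled KO replicate 1. The 5 filled KO points lie at 59.9 to 61.1% on the right, and the WT point of litter 41 lies at 50.8%.

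Conversely, tiles hyper on 30 ppm were read in embryos of the other diets, which share no embryo with this comparison. Of the 6886 hyper tiles that were also tested on 3 ppm, 99.7% were higher in KO there, against 87.0% of all 51710 tiles tested on both diets. Their median difference was 18.02 points on 3 ppm and 16.2 points on 30 ppm. On 3 ppm 5745 of them were called, which is 83.4% of the 30 ppm tiles and 59.8% of the 9601 tiles called on 3 ppm among those tested on both. The background on 3 ppm was 16.3% of all tiles tested there, or 9601 of the 51710 tested on both diets. In the 3 ppm embryos, the mean level at 6887 covered tiles was 62.5% ± 0.837 in KO (n = 5) and 42.8% ± 0.650 in WT (n = 4), with an exact permutation p of 0.0159 (the smallest possible) and an adjusted p of 0.0477. Of the 7070 hyper tiles tested on 0.1 ppm, 98.6% were higher in KO, against 82.7% of all 52055 tiles tested on both diets, and 4673 were called (66.1%), with a background of 11.2% of all tiles tested there, or 7008 of those 52055. The level in the 0.1 ppm embryos was 62.1% ± 0.465 in KO (n = 5) and 44.8% ± 4.89 in WT (n = 2), with an exact permutation p of 0.0952, the smallest that this design allows.

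Whether the KO effect differs between diets was tested by the interaction of genotype and diet. Between 30 and 3 ppm, 0 of 57185 tiles passed (0% of those tested, quasi-binomial test), with a smallest adjusted p of 0.49. At an unadjusted p under 0.05 there were 3309 tiles (5.79%), of which 804 had a larger and 2505 a smaller KO effect on 30 ppm. This imbalance was no longer seen when the library labelled WT replicate 2 was dropped. There were then 2910 tiles (5.07%), of which 1508 had a larger and 1402 a smaller effect on 30 ppm. No other single embryo was dropped from the interaction, so whether the change is particular to that library was not tested. Between 30 and 0.1 ppm 0 of 58237 tiles were called (0%), with 2434 at an unadjusted p under 0.05 (4.18%), of which 784 had a larger and 1650 a smaller KO effect on 30 ppm. Leaving out the library labelled WT replicate 2 gave 1449 larger and 1294 smaller. A count of 0 does not show that the effects are equal. The median difference between the diets in the KO effect was -1.07 points against 3 ppm, and -0.46 points without the library labelled WT replicate 2. Against 0.1 ppm it was -0.72 points, and -0.059 points without that library.

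Promoters, taken as 1 kb to either side of the start of a protein-coding gene, were covered for 13200 genes. Most of them were nearly unmethylated in both genotypes, with a median level of 0.842% in WT and 0.965% in KO. Means lay under 10% at 11686 of the 13200 in WT and at 11290 in KO, and 2423 passed the SD filter. Of these, 515 (21.3%) were hyper and 0 hypo (quasi-binomial test). At least 10 points lower at an unadjusted p under 0.05 were also 0, and limma called 503 hyper and 0 hypo promoters. Since the SD filter keeps promoters that vary, the share of 21.3% holds for those alone. Without the filter 509 of 13200 promoters were hyper (3.86%). The hyper promoters had a median level of 21.2% in WT and 43.9% in KO. Every KO embryo lay above every WT embryo at 42% of the promoters tested. The largest difference was at Tmem233 (chromosome 5, 116082244 to 116084244), with 66.3, 82.0, 73.6, 63.3 and 71.5% in KO and 8.73, 29.8 and 9.54% in WT (55.3 points, adjusted p = 0.000245). It was followed by Gm9817, Spaca1, Trim58 and Lhcgr. Differences at single promoters can depend on the size of the window, and those that moved by over 1.5 times with windows of 2.5 kb are given with both values.

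The promoter of Spaca1, which encodes an acrosome protein of sperm (chromosome 4, 34049191 to 34051191), had 64.7, 62.9, 61.4, 47.9 and 70.7% in KO and 11.7, 24.7 and 8.02% in WT (46.7 points, adjusted p = 0.000254). The promoter of Trim58, a ubiquitin ligase of the erythroid lineage (chromosome 11, 58639465 to 58641465), had 56.1, 61.2, 63.0, 49.6 and 53.5% in KO and 3.77, 23.6 and 3.275% in WT (46.5 points). The promoter of Lhcgr, the receptor of luteinising hormone (chromosome 17), rose from 28.6% ± 8.97 to 74.7% ± 5.66. The predicted gene Gm9817 (chromosome 13) rose from 30.8% ± 10.6 to 81.0% ± 6.42. Expression was not analysed here. The promoters were also higher in KO on the other diets, by 44.3 to 61.2 points on 3 ppm and by 41.9 to 58.1 points on 0.1 ppm, over the CpGs covered on each diet.

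Genes were then examined by lists. The first were those of folate and one-carbon metabolism. Folate transporters and receptors had 3 of 5 promoters covered, all under 10% in both genotypes, and 0 passed the SD filter. The promoter of Slc46a1, the proton-coupled folate transporter, had 4.09, 6.25, 2.23, 4.46 and 5.26% in KO and 3.65, 5.41 and 5.91% in WT on 21 CpGs, with overlapping groups. According to the study, a CpG island shore of this gene is not covered by the method, and these values do not speak to it. That of Slc19a1, the reduced folate carrier, read 0% in every KO embryo and 1.61, 0.699 and 0% in WT, on 58 to 248 reads. Within Slc19a1, 1 of 5 tiles was hyper (chromosome 10, 77034001 to 77035000), where 13.2% of tiles in or within 1 kb of any protein-coding gene were hyper. This tile has its centre 2259 bp downstream of the start. It had 42.03, 41.27, 50, 42.5 and 51.6% in KO and 20.3, 28.6 and 29.7% in WT (19.3 points, adjusted p = 0.00337), on 3 CpGs and 31 to 158 reads. In the other 4 tiles of Slc19a1 and in those of Slc46a1 and Folr2, KO and WT differed by -1.98 to 2.24 points, and none was called.

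Enzymes of one-carbon metabolism had 34 of 40 promoters covered and 8 tested, of which 4 were hyper (Aldh1l2, Bhmt2, Dmgdh and Gnmt) and 0 hypo, where 21.3% of all tested promoters were hyper. Aldh1l2, the mitochondrial formyltetrahydrofolate dehydrogenase, had 25.2, 24.55, 26.4, 24.5 and 24.5% in KO and 7.385, 16.3 and 7.29% in WT (14.7 points, adjusted p = 0.0011). Bhmt2 (a homocysteine methyltransferase) and Dmgdh (dimethylglycine dehydrogenase) are neighbours with the same 19 measured CpGs, and count as a single observation. These CpGs rose from 7.72% ± 3.33 to 25.2% ± 5.65 (adjusted p = 0.000692). Within the list's genes 12 of 78 tiles were hyper (15.4%), against 13.2% of tiles in or within 1 kb of any protein-coding gene. Among writers, readers and erasers of DNA methylation 13 of 63 tiles were hyper (20.6%), and of 3 tested promoters that of the methyl-CpG binding protein Zbtb38 was hyper (13.03 points, adjusted p = 0.0261), without a gap between the groups. The call at the Zbtb38 promoter was lost with KO replicate 4, 5 or 6 or WT replicate 1 left out (adjusted p = 0.0549 to 0.274), and without WT replicate 1 the difference was 7.69 points. KO was higher at 25 of the 34 covered one-carbon promoters and at 9 of 18 of the methylation list (73.5 and 50%, against 68.4% of all covered promoters). The hyper tile of the methylation list with the largest difference outside chromosome 18, named after its values were seen, was intronic to Tet1 (chromosome 10, 62884001 to 62885000). It had 87.3, 90.3, 98.1, 85.5 and 89.7% in KO and 28.4, 59.7 and 50% in WT, and it contains the CpG used to check the labels. The next tile of Tet1 (62885001 to 62886000) was hyper as well, from 39.7% ± 11.7 in WT to 73.6% ± 2.24 in KO. Both lie in the gene that the KO allele targets, and both count among the 13 hyper tiles of the list.

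The promoters of genes required for neural tube closure had low levels in both genotypes, as most promoters did. Of 63 genes 59 were covered, and 59 of 59 had means under 10% in KO and in WT, against 11290 and 11686 of all 13200 covered promoters. Averaged over the list, KO embryos had 0.948 to 1.16% and WT embryos 0.974 to 1.02%, with KO higher at 28 of 59 (47.5%, against 68.4% of all covered promoters). A single promoter passed the SD filter, that of Marcks, a protein kinase C substrate of the growing cell cortex. It had 0.467, 6.88, 1.97, 0 and 1.05% in KO and 1.73, 0.402 and 1.45% in WT, and was not called (adjusted p = 0.61). Of the tiles in or within 1 kb of these genes, 21 of 223 were hyper (9.42%, against 13.2% for any protein-coding gene) and 0 hypo.

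Promoters of 3 further developmental lists also lay low. All 51 covered promoters of brain patterning genes, all 25 of proneural bHLH genes and all 20 of the hedgehog pathway lay under 10% in both genotypes, again against 11290 of all 13200 in KO and 11686 in WT. KO was higher at 32, 14 and 9 of them (62.7, 56 and 45%, against 68.4% of all covered promoters). Pax8, Neurog3 and Hhat, the members named by the rule, were not called (differences of 2.43, 3.96 and 3.72 points). Tiles were hyper in 10 of 86 for patterning (11.6%), 7 of 34 for bHLH (20.6%) and 10 of 98 for hedgehog genes, against 13.2% for any protein-coding gene. These tiles include some at the edge of a promoter with high levels, named after their values were seen. A promoter tile of the oligodendrocyte lineage gene Olig1 (chromosome 16, 91268001 to 91269000) had 55.0% ± 7.17 in KO and 32.4% ± 2.87 in WT (adjusted p = 5.3e-05), and one of Phox2a, a homeobox gene of autonomic neurons (chromosome 7, 101819001 to 101820000), had 65.7% ± 8.56 and 40.6% ± 11.2 (adjusted p = 0.00528). Of 35 covered Hox promoters 28 were higher in KO (80%, against 68.4% of all covered promoters), none was called, and the list's mean was 1.89 to 2.22% in KO and 1.27 to 1.57% in WT. Of the 2 Hox promoters tested the larger difference was 3.94 points at Hoxc10. Of 22 Hox tiles 1 was hyper (4.55%), at Hoxa7 (named after its values were seen), which rose from 10.4% ± 2.18 to 30.07% ± 11.6 (19.7 points, adjusted p = 0.000745). In the Wnt list 1 of 6 tested promoters was hyper, against 21.3% of all tested promoters, and 49 of 256 tiles (19.1%) were hyper. The list's mean was 3.86 to 4.19% in KO and 2.86 to 3.42% in WT. KO was higher at 40 of the 64 covered Wnt promoters (62.5%). The Wnt5a promoter, of a signalling ligand, differed by 7.80 points (3.52 points with windows of 2.5 kb) and was not called. Without the library labelled WT replicate 2, 17 patterning tiles were hyper. In that setting 15.9% of all tested tiles were hyper, against 11.8% with the library.

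Genes of synaptic transport and excitability were read against the 21.3% of all tested promoters and the 13.2% of tiles in or near any protein-coding gene that were hyper. Whether a list differs from these shares was not tested. Neurotransmitter transporters had 4 of 6 tested promoters hyper, of 26 covered, and 19 of 88 tiles (21.6%). Slc6a3, the dopamine transporter, had 14.0, 17.6, 18.8, 16.2 and 24.7% in KO and 2.37, 9.545 and 1.22% in WT (13.9 points, adjusted p = 0.00247). Slc17a8, a vesicular glutamate transporter, rose from 40.0% ± 9.21 to 66.7% ± 5.48 (adjusted p = 0.00167), and Slc10a4, found on synaptic vesicles, from 8.26% ± 2.94 to 19.8% ± 3.99 (adjusted p = 0.000742). The Slc10a4 promoter fell below the minimum of 10 points without KO replicate 2 (9.81 points) and with the library labelled KO replicate 1 added (9.64 points), and differed by 18.3 points at a minimum of 10 reads. At that minimum the Slc6a3 promoter differed by 9.70 points and lost its call. Potassium channel genes had 10 of 18 tested promoters hyper, of 71 covered, and 69 of 306 tiles (22.5%). At the channel subunit gene Kcnab1 the levels were 46.7, 38.8, 42.05, 39.5 and 39.2% in KO and 2.36, 15.7 and 3.75% in WT (33.96 points, adjusted p = 0.000367). Kcne1 and Kcng4 rose by 23.4 and 21.2 points, and the Kcng4 promoter lost its call without WT replicate 1 (16.1 points, adjusted p = 0.0769). Solute carriers as a whole had 17 of 62 tested promoters hyper, led by Slc46a2 and the drug exporter Slc47a1 (42.6 and 28.4 points), with 127 of 866 tiles (14.7%). With windows of 2.5 kb the Slc46a2 promoter differed by 25.9 points. Of the synaptic release list 0 of 3 tested promoters were hyper (Rab3a, 7.12 points), and 24 of 197 tiles (12.2%). Axon guidance genes had 1 of 4 (Sema4a, 17.7 points, adjusted p = 0.0328) and 70 of 459 tiles (15.3%). The call at the Sema4a promoter was lost with litter as a block (16.3 points, quasi-binomial test, adjusted p = 0.156), and with KO replicate 2, 3, 4 or 6 or WT replicate 1 or 3 left out (adjusted p = 0.0589 to 0.193). In the order neurotransmitter transporters, potassium channels, solute carriers, synaptic release and axon guidance, KO was higher at 80.8, 83.1, 74.2, 72.5 and 66.2% of the covered promoters, against 68.4% of all. The synaptic and solute carrier lists follow themes of the study and are not independent evidence of a direction.

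Of the lists, the germline genes had the highest mean promoter level in both genotypes, followed in KO by the muscle and mesoderm genes. In the muscle and mesoderm list 25 of 43 covered promoters were tested and 8 were hyper (32%, against 21.3% of all tested promoters). Acta1, the skeletal muscle actin, had 74.1, 74.9, 77.4, 73.6 and 73.8% in KO and 29.8, 48.5 and 27.9% in WT (39.3 points, adjusted p = 0.000245). With windows of 2.5 kb the Acta1 promoter differed by 21.9 points. Meox1, a homeobox gene of the somites, and Mylk2, the skeletal myosin light chain kinase, rose by 28.2 and 25.04 points. In the germline list 10 of 33 tested promoters were hyper (30.3%), with gains at Spaca1 (above), the protamine gene Prm2 (25.8% ± 10.1 to 66.3% ± 7.59) and the synaptonemal complex gene Sycp3 (63.6% ± 5.40 to 79.0% ± 2.26). Pluripotency genes had 1 of 7 hyper, the Nodal antagonist Lefty1 (25.4 points, adjusted p = 0.000353). The Lefty1 promoter differed by 10.6 points with windows of 2.5 kb. Imprinted genes had 0 of 17 tested promoters called, with the largest difference at Grb10 (8.38 points), and their mean over 27 promoters overlapped between KO (24.7 to 30.2%) and WT (25.4 to 26.1%). Zinc finger genes of the Zfp series had 6 of 47 hyper, among them Zfp488, Zfp648 and Zfp872 (17.4 to 22.5 points), which is 12.8% of those tested. With litter as a block the Zfp648 promoter (adjusted p = 0.051, quasi-binomial test) and the Zfp872 promoter (adjusted p = 0.07) lost their calls. The Zfp648 promoter also lost it without WT replicate 1 (adjusted p = 0.0793), and differed by 10.9 points with windows of 2.5 kb. At a minimum of 10 reads the Zfp872 promoter differed by 27.5 points. The shares of hyper tiles in these lists were 13.7, 15.2, 16.4, 11.8 and 10.9% in the same order, against 13.2% for any protein-coding gene. KO was higher at 81.4, 63.8, 59.1, 66.7 and 63.3% of their covered promoters, against 68.4% of all.

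Promoters of marker genes were also read, although promoter methylation does not give a share of cells. All 15 covered promoters of brain identity genes lay under 10% in both genotypes. So did 11290 of all 13200 covered promoters in KO and 11686 in WT, and the low levels do not identify the tissue. The brain identity list had means of 0.701 to 0.928% in KO and 0.662 to 0.811% in WT. Promoters of blood and endothelial markers had list means of 33.6 to 35.5% in KO and 30.3 to 32.6% in WT. Of these promoters 2 of 6 tested were hyper (Lyl1, 12.8 points, and Itga2b, 20.5 points), against 21.3% of all tested promoters. The call at the Itga2b promoter was lost without KO replicate 5 (adjusted p = 0.0523), without WT replicate 1 (0.0592) and with normal KO embryos only (0.209), and the difference was 13.6 points with windows of 2.5 kb. In such windows the Lyl1 promoter fell below the minimum (9.74 points). However, KO was higher at only 3 of these 6 and at 6 of the 11 covered (54.5%, against 68.4% of all covered promoters), with a median difference of 0.133 points over the 11. Promoters of mesenchyme and neural crest markers had 10.18 to 11.99% in KO and 5.75 to 8.21% in WT. Here 3 of 4 tested were hyper, among them Sox10 (60.2% ± 6.22 to 79.8% ± 6.03, adjusted p = 0.00146) and Meox1, against 21.3% of all tested promoters. In windows of 2.5 kb the Sox10 promoter differed by 7.92 points and was not called. KO was higher at only 9 of the 16 covered promoters of this list (56.25%, against 68.4% of all), with a median difference of 0.118 points. Of the tiles in these 3 lists 7 of 45 (15.6%), 16 of 81 (19.8%) and 14 of 44 (31.8%) were hyper, against 13.2% for any protein-coding gene. The part of the cell mix in the KO gain was not tested. Over all lists, KO and WT embryos did not overlap in the list's mean promoter level in 13 of 22. Over all 13200 covered promoters the mean did not overlap either, with 8.92 to 9.08% in KO and 7.12 to 7.97% in WT.

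**Figure D5:**
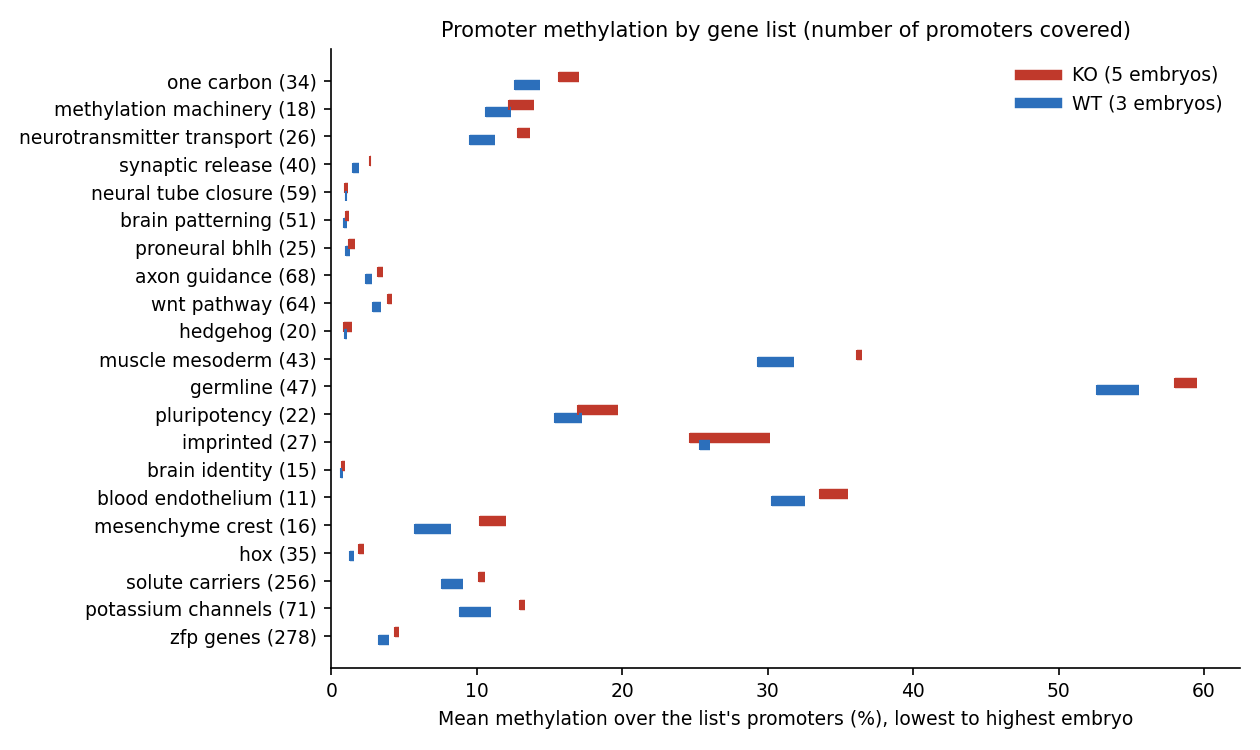
Mean promoter methylation (%) over the covered promoters of each gene list with at least 10 of them, drawn from the lowest to the highest embryo, for KO (red, 5 embryos) and WT (blue, 3 embryos). Neural tube closure, brain patterning and brain identity lie near 1%, with overlapping groups. Muscle and mesoderm genes lie at 36.15 to 36.5% in KO and 29.3 to 31.8% in WT.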

How the data were processed

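CpG methylation was measured by oxidative bisulfite RRBS of MspI and TaqI digested DNA. According to the study's methods and the submitters' processing notes, the authors trimmed reads with Trim Galore 0.6.10, aligned them to mm10 with Bismark 0.24.1 and removed duplicates by molecular identifiers with UMI-tools. The deposited tables give, per CpG and library, the fraction of methylated reads and the read count that covers it. The lowest count listed was 2, and fraction times count was whole in 100% of lines, so methylated and unmethylated reads were recovered. Incomplete oxidation or conversion would raise all levels, and the enzyme digest favours CpG-rich sites. The deposited region lists, which hold the authors' own differentially methylated regions, were not used.

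Autosomal CpGs with at least 5 reads in every library compared were summed over 1 kb tiles and over promoters (GENCODE vM21) with at least 3 CpGs and an SD of at least 2 points. Reads were fitted by a quasi-binomial logistic model with empirical Bayes moderation of the dispersion (after limma), not allowed below 1, a two-sided F test and Benjamini-Hochberg adjustment over all features tested (Python 3.11.15, NumPy 2.4.6, SciPy 1.17.1). On simulated data for KO against WT on 30 ppm (93233 tiles), 80 of 100 tiles changed by 30 points and 33 of 100 changed by 20 points were recovered, with 6 false calls. The limma alternative recovered 0 of 100 at either size. Far fewer tiles were changed in the simulation than were called in the data. They all had intermediate starting levels, and no library was shifted as a whole. The data gave 3925 hyper tiles with limma, so the simulated rates do not carry over to this comparison. Embryo means were tested with exact permutations, two-sided. At the median tile the shallowest embryo had 50 reads and the deepest 212. Replicates were separate embryos. Intervals cover counting error only. Same-litter KO and WT embryos were paired by the study, and the main test leaves this pairing out. Across tiles their deviations from the group means had a Pearson's r of 0.022, -0.024 and 0.015 in the 3 litters. Such an r cannot show a shift common to all tiles of a litter, and counting error in the tiles brings it down. Counts with litter as a block are given below. Members, lists and tests were chosen with earlier results of these data known. Named tiles are the 10 hyper tiles with the largest difference and no overlap between the groups (at most 1 per gene) and up to 5 hypo tiles. Named promoters are the 5 largest hyper ones under the same rule, up to 3 called per list or else the largest tested, and tested folate transporters. Features on chromosome 18 were counted and not named. Alternatives were another coverage minimum, no SD filter, other minimum differences, limma, litter, sex, the left-out library, normal KO embryos, another dispersion, other tile and window sizes, and each embryo left out. Gene list counts without WT replicate 2 were added after seeing the data.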

Additional observations from a re-analysis of the deposited data

Results flagged for a closer look

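Of 55 sets of 5 KO embryos examined, 5 held an embryo far from the other 4 by Dixon's ratio, where chance gives about 1 in 20. At the Grb10 promoter KO replicate 5 had 24.4%, against 17.7 to 18.9% in the others. At the Itga2b promoter KO replicate 6 had 64.5%, against 83.0 to 89.7%. At the Lyl1 promoter KO replicate 4 had 20.3%, against 15.6 to 16.9%. At the Marcks promoter KO replicate 3 (labelled NTD) had 6.88%, against 0 to 1.97%. At the Slc10a4 promoter KO replicate 2 (labelled NTD) had 26.8%, against 17.0 to 19.3%.

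The Rgs6 tile moved in opposite directions on 2 diets. KO was lower on 30 ppm (difference of -15.2 points) and higher on 3 ppm (15.9 points). The interaction test gave an unadjusted p of 0.000155 and an adjusted p of 0.52, so it failed the correction.

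The library labelled KO replicate 1, which entered only the alternatives, read 45% at the CpG in Tet1. This is above the highest WT library (36.36%) and below the lowest KO library (77.8%).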

How the results depend on the processing

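Under every alternative run, hyper calls outnumbered hypo calls and both means stayed higher in KO. Hyper tiles numbered 3925 with limma, 3699 with the library labelled KO replicate 1 as KO, 5055 with normal KO embryos only, 2467 at a minimum of 20 points and 11826 without a minimum, and 4916 to 10429 with an embryo left out. Hypo tiles numbered 6, 2, 10, 0 and 42 in the same order, 9 with sex as a covariate and 9 to 24 with an embryo left out. Of the 15 hypo tiles of the main test, 5 kept the call with limma, 2 with the library labelled KO replicate 1 and 6 with sex. With normal KO embryos 1 kept it, and each named hypo tile lost it. Hyper promoters numbered 319 with the library labelled KO replicate 1, 214 with normal KO embryos, 180 and 1137 at a minimum of 20 points and without one, and 395 to 631 with an embryo left out. Hypo promoters numbered 1 with normal KO embryos, 1 in windows of 2.5 kb, 3 without a minimum and 0 to 2 with an embryo left out. Normal KO embryos alone leave fewer samples by construction, and for limma, sex and the added library the cause was not tested. With litter as a block, over 7 embryos, there were 6374 hyper and 14 hypo tiles, and 427 hyper and 0 hypo promoters, and no count moved by over 1.5 times. Of the named tiles and promoters with a value under the block, it ended the calls of Krtap4-7, Sema4a, Zfp648 and Zfp872 alone.

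The mean difference over shared CpGs (2.26 points) was 1.85 points with the library labelled KO replicate 1 (exact permutation p = 0.0714), 2.34 with normal KO embryos, 3.12 when weighted by reads (exact permutation p = 0.25), 1.48 over each embryo's own CpGs and 1.96 to 2.62 with an embryo left out. The level at tiles hyper on 3 ppm differed by 14.1 points with normal KO embryos and by 13.02 to 16.8 with an embryo left out. The mean of the within-litter differences (litter block) was 2.23 and 14.4 points, each with an exact p of 0.25, the smallest that 3 litters allow. Normal KO embryos alone, or any embryo left out, likewise could not pass the threshold. Why the mean fell over own CpGs was not tested. The interaction counts stayed at 0 in each setting run. Without the library labelled WT replicate 2, hyper tiles in Hox genes numbered 2, and hyper promoters 2 for methylation machinery, 2 for pluripotency and 10 for Zfp genes. In that setting 15.9% of all tested tiles and 25.7% of all tested promoters were hyper. Over the alternatives, 34 of 249 values of named tiles and 49 of 664 values of named promoters lost their call, most often at the Sema4a promoter and the Vmn2r89 tile, and 0 changed direction. All 34 lost tile calls were at the named hypo tiles, and the named hyper tiles kept theirs. Normal KO embryos alone ended the calls at the promoters of Aldh1l2, Itga2b, Kcne1, Kcng4, Meox1, Sema4a, Slc17a8, Slc46a2, Slc6a3, Sox10, Sycp3, Zbtb38, Zfp488, Zfp648 and Zfp872, and adding the library labelled KO replicate 1 those of Kcng4, Sema4a, Slc10a4, Slc17a8, Slc46a2, Zbtb38, Zfp648 and Zfp872. Depth limits the tested set to CpGs present in all libraries, and leaving out WT replicate 3 raised the tiles tested from 65152 to 80336.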

Other observations

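All 30 named hyper promoters but 1 were covered on 3 ppm, and all 29 of these were higher in KO there. On 0.1 ppm the same held for 29 of 29. On 30 ppm 90.6% of all tested promoters were higher in KO, and this share was not computed on the other diets. Of all tiles also tested on 30 ppm, 87.0% were higher in KO on 3 ppm and 82.7% on 0.1 ppm. Bhmt2 and Dmgdh share their CpGs but are counted separately here. Across the 51710 tiles tested on 30 and 3 ppm, which share no embryo, the KO differences had a Pearson's r of 0.809 (0.728 over 52055 tiles with 0.1 ppm). Tiles are not independent replicates, and they share the depth and base composition of their sites.

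Pairs of KO embryos differed by a median of 3.69 to 4.26 points per tile and pairs of WT embryos by 3.54 to 4.23 points. KO embryos differed from WT replicates 1 and 3 by 5.14 to 5.74 points and from the library labelled WT replicate 2 by 3.84 to 4.39 points.

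Among the 5 KO embryos at tiles hyper on 3 ppm, KO replicate 5 was the lowest in 23.3% of tiles, and the others in 18.2 to 20.4%. The embryos labelled NTD had mean levels of 60.7 and 61.1% there, and those labelled norm 60.0 and 60.9%, values too few for a test.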
